A study of Mus musculus and Homo sapiens with 4 samples.

Results

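The entries described here are 9 entries of chromosome 11 that lie around the long non-coding RNA genes NEAT1 and MALAT1, out of 25932 entries measured in each of 2 RNA-sequencing libraries. The entries were chosen by gene symbol and chromosome and passed no filter on their values, though earlier results of these data were known. They stand for 8 genes, because NEAT1 is listed as 2 separate entries, CR607557 and NCRNA00084. The other genes are MALAT1 and 6 protein-coding neighbours: POLA2, CDC42EP2, DPF2, SLC25A45, FRMD8 and LTBP3. One library came from VCaP cells, a prostate cancer cell line at passages 5 to 6, and 1 from VCaP ERα cells, at passages 4 to 5, which are the same line made to express oestrogen receptor alpha (ERα) stably. Both were grown in medium with serum, and the labels give no hormone treatment for either. The libraries are labelled poly-A- and strand-specific, and were made from total RNA after removal of ribosomal RNA. Whether the VCaP ERα line is 1 clone or a pool is not given in the sources used here. With 1 library for each cell line, no difference given here has a replicate check, and no test between the lines was made.

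NEAT1 and MALAT1 are neighbouring genes whose RNAs stay in the nucleus and are not translated. NEAT1 RNA is the scaffold of paraspeckles, nuclear bodies that hold RNA-binding proteins, and it is made as a short and a long isoform that begin at the same promoter. MALAT1 RNA gathers in nuclear speckles, bodies rich in splicing factors. The study addressed genes and non-coding RNAs that follow ERα in prostate cancer cells, NEAT1 among them.

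ESR1, the gene encoding ERα, stood at 15.7 RPKM in VCaP against 209 RPKM in VCaP ERα, in the direction of the labels. RPKM divides the reads of an entry by its length in kb and by the mapped total. In these libraries that total appeared to be a separate one for each strand, as described below. The cell type markers separated the libraries in another way. All 10 prostate luminal markers were lower in the library labelled VCaP (0 to 8.18 RPKM, median 0.991) than in VCaP ERα (3.16 to 694 RPKM, median 117), with KLK4 and FOLH1 listed at 0 in the former. Of 8 breast luminal markers, 7 had a log2 ratio below -1, and the summed level of the 8 was 3642 RPKM in the library labelled VCaP against 32.2 RPKM in VCaP ERα. The fibroblast and haematopoietic markers did not exceed 1.18 RPKM in either library, and of 4 basal epithelial genes 2 were lower and 1 higher past a log2 ratio of 1 in size. The library labelled VCaP therefore goes against its label by these markers. Every comparison below is between the library labelled VCaP and that of VCaP ERα, and a difference between the cultures cannot be told apart from an effect of ERα. As these are bulk libraries, fewer cells with a transcript and less of it per cell cannot be told apart either.

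Log2 ratios were taken as VCaP ERα over VCaP after 1 was added to each RPKM value, which understates differences of low entries. For the 9754 entries that reached 1 RPKM in each library, the log2 ratios had a median of -0.59, so each member is also given relative to that shift, as a centred log2 ratio. Coordinates are those of the files. Of the builds that the submitters' processing notes name, hg18 is the human one, and each interval is the outer span of an entry, without its exons.

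MALAT1 was by far the most abundant of the 9 entries in both libraries. Its entry (chromosome 11, 65022410 to 65030999) stood at 127 RPKM in VCaP against 503 RPKM in VCaP ERα. This is 3.97-fold higher in VCaP ERα, a log2 ratio of 1.98 and a centred log2 ratio of 2.57. Among all entries MALAT1 ranked 281 by level in VCaP and 40 in VCaP ERα. Its log2 ratio ranked 607 of 25932 and lay just under the limit of 2 used for gene selection in the study, which 2.27% of all entries passed. It lay above that limit after centring and, at 2.33, after quantile normalization. Under these 2 settings 1238 and 996 of all entries lay above 2, against 588 as deposited. With both strands scaled to 1 total, as described below, the log2 ratio of MALAT1 was 1.83. The part that the difference in cell type markers plays in this and the other values of the locus was not tested.

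NEAT1 was also higher in VCaP ERα, and by a different factor in its 2 entries. CR607557 (64946821 to 64948808), described in the files as the 5′ fragment of the transcript, stood at 16.8 RPKM in VCaP against 21.5 RPKM in VCaP ERα. NCRNA00084 (64949093 to 64963719), described as the 3′ fragment, stood at 26.6 RPKM in VCaP against 53.4 RPKM in VCaP ERα. The 5′ entry was thus 1.28-fold higher in VCaP ERα and the 3′ entry 2.01-fold higher. The 5′ entry spans 1988 bases and lies in the part that the short and the long isoform share. The 3′ entry spans 14627 bases, starts 284 bases further on, and lies mostly beyond the end of the short isoform.

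The log2 ratio was 0.34 for CR607557 and 0.98 for NCRNA00084, and relative to the median shift it was 0.93 and 1.57. Within VCaP the 3′ entry stood at 1.58 times the level of the 5′ entry, and within VCaP ERα at 2.48 times. This ratio of the 2 entries is taken inside a library, so no scaling between libraries enters it. Both isoforms include the part that holds the 5′ entry, and yet its level was the lower one in each library. The 2 entries can therefore not be read as levels of the isoforms, and the reason for the higher 3′ level was not tested. By level, NCRNA00084 ranked 1950 in VCaP and 550 in VCaP ERα, while CR607557 ranked 3124 and 1439.

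The depth behind these non-coding entries was read from the values themselves. When the RPKM of short entries was multiplied by their span, the products were whole multiples of 1 of 2 steps in each library (77 of 77 short, low entries in VCaP and 378 of 404 in VCaP ERα, within 0.02 of a whole number). The commonest multiple in longer entries was 108 bases in every case, which is used here as 1 counted unit. Taking each entry as 1 exon over its whole span, CR607557 then rested on 344 units in VCaP and 451 in VCaP ERα, NCRNA00084 on 4003 and 8239, and MALAT1 on 11194 and 45651. The ratio between the libraries had a 95% interval of 1.11 to 1.47 for CR607557, 1.93 to 2.08 for NCRNA00084 and 3.89 to 4.06 for MALAT1 (exact binomial). The 3 intervals do not overlap, but they cover counting error only, and the spread between cultures is not known. They are also on the scale of the deposited values. With both strands of a library scaled to 1 total, as described below, all 3 would lie lower by 0.15 (log2). The log2 ratio of CR607557 was then 0.19 in place of 0.34, and no interval was taken on that scale. A difference of CR607557 beyond counting error is therefore not shown there.

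**Figure D1:**
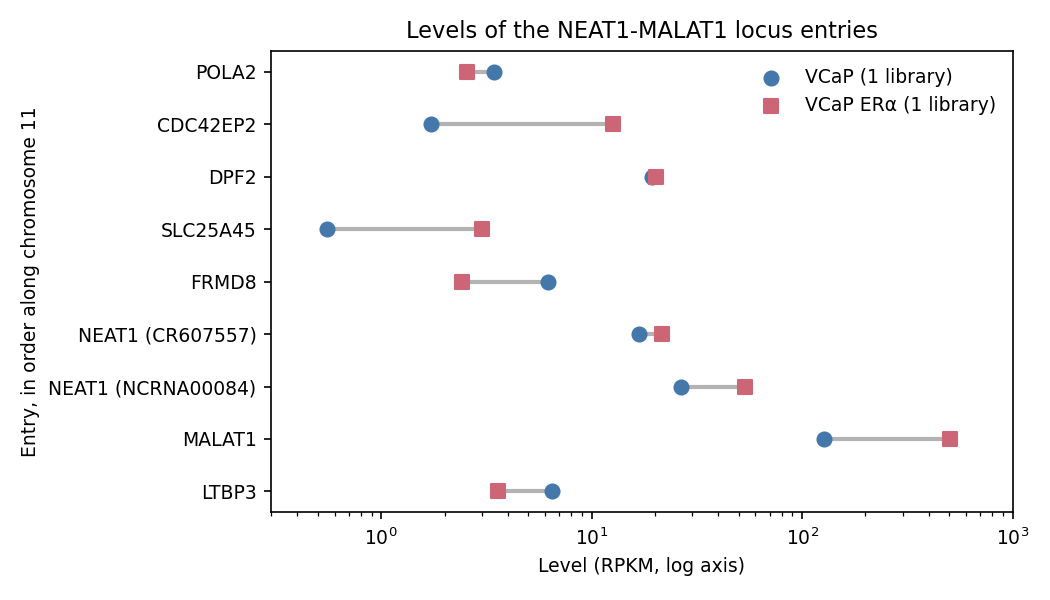
Levels of the 9 entries, in order along chromosome 11, in RPKM on a log axis, with a circle for the VCaP library, a square for the VCaP ERα library and a line joining them. MALAT1 stands at 127 and 503 RPKM, above every other entry in both libraries, and CDC42EP2 and SLC25A45 have the longest lines.

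The remaining entries of the locus went in several directions. CDC42EP2 (64838907 to 64846476), which encodes an effector protein of the small GTPase CDC42 that acts on the actin and septin cytoskeleton, stood at 1.72 RPKM in VCaP against 12.6 RPKM in VCaP ERα. It was 7.36-fold higher in VCaP ERα, with a log2 ratio of 2.33, the largest of the 9, and it alone passed the limit of 2. SLC25A45 (64899239 to 64907748), a member of the mitochondrial carrier family, stood at 0.550 RPKM in VCaP against 3.02 RPKM in VCaP ERα, with a log2 ratio of 1.37. It was the only member under 1 RPKM in VCaP, and its log2 ratio was 2.26 with a pseudocount of 0.1.

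FRMD8 (64910617 to 64937571) was the only member lower in VCaP ERα by a log2 ratio below -1. The FERM-domain protein it encodes binds iRhom proteins and keeps the shedding protease ADAM17 stable at the cell surface. The gene lies 9.25 kb before the first NEAT1 entry. It stood at 6.20 RPKM in VCaP against 2.41 RPKM in VCaP ERα, with a log2 ratio of -1.08 that became -0.49 relative to the median shift. Thus the gene next to NEAT1 on one side was lower in VCaP ERα while both NEAT1 entries were higher.

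LTBP3 (65062850 to 65082006), whose product binds latent TGF-β in the extracellular matrix, stood at 6.48 RPKM in VCaP against 3.60 RPKM in VCaP ERα. Its log2 ratio was -0.70, or -0.11 after centring and 0.04 after quantile normalization, so its direction depended on the scaling. POLA2 (64786008 to 64821664), the accessory subunit of the DNA polymerase α-primase complex, stood at 3.42 RPKM in VCaP against 2.56 RPKM in VCaP ERα. Here too the direction turned, from a log2 ratio of -0.31 to 0.28 after centring and 0.32 after quantile normalization. DPF2 (64857922 to 64877027), a subunit of BAF chromatin remodelling complexes that binds modified histone tails, stood at 19.3 RPKM in VCaP against 20.2 RPKM in VCaP ERα. Its log2 ratio of 0.07 was the closest to 0, and it became -0.08 when both strands were scaled to 1 total and 0.66 after centring.

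In all, 6 of the 9 entries had a log2 ratio above 0, against 46.6% of all entries, and 3 were above 1, against 9.16% of all entries. One was below -1, against 18.5%, 1 was above 2, against 2.27%, and 0 were below -2, against 6.56%. After centring, 4 entries were above 1 and 0 below -1, against 24.2% and 10.4% of all entries. Among the 8 members that reached 1 RPKM in each library, 5 were above 0, against 29.1% of all such entries. Of these 8, 2 were above 1 and 1 below -1, against 7.89% and 35.6% of such entries. After centring 3 of the 8 were above 1 and 0 below -1, against 17.1% and 19%. Of the 64 other entries within 500 kb of the locus on either side, 16 (25%) were above 1. The median log2 ratio of the 9 was 0.34, and that of all entries was 0. For the 8 it was 0.20, against -0.59 for all entries that reached 1 RPKM in each library. With so few members, of which 2 belong to the same gene, these shares are a description of the locus.

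**Figure D2:**
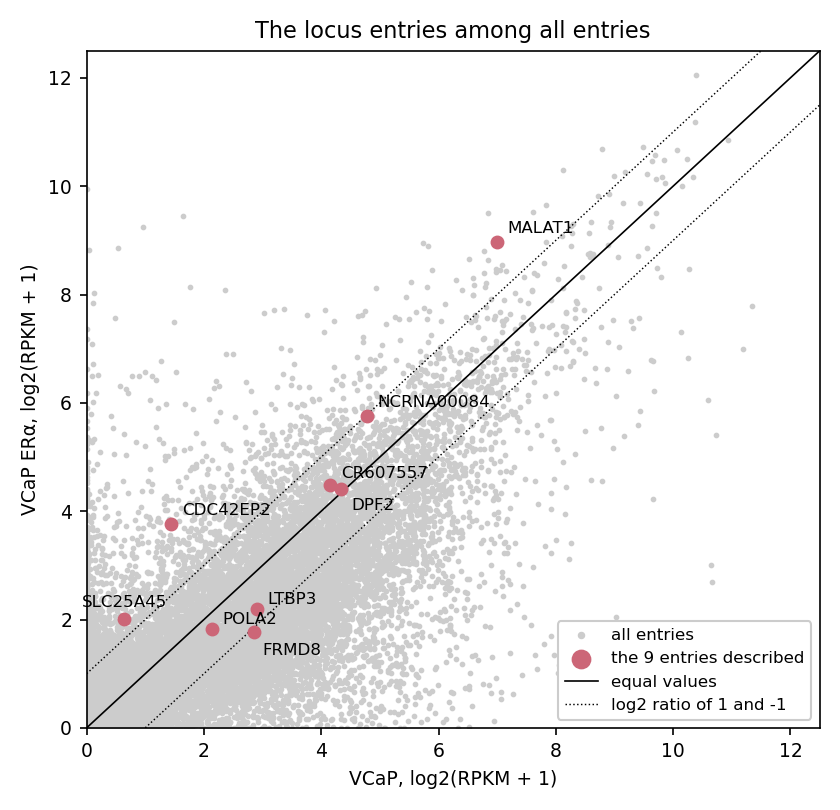
Each of the 25932 entries (grey) by its value in VCaP (x axis) and VCaP ERα (y axis), both as log2(RPKM + 1), with the 9 entries in colour; the solid line marks equal values and the dotted lines a log2 ratio of 1 and -1. MALAT1, CDC42EP2 and SLC25A45 lie above the upper dotted line, the last 2 at low VCaP values, and DPF2 lies near the solid line.

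The order of the levels changed little at the top. In VCaP it ran from MALAT1 through NCRNA00084, DPF2, CR607557, LTBP3, FRMD8, POLA2 and CDC42EP2 to SLC25A45. In VCaP ERα MALAT1 and NCRNA00084 again came first, followed by CR607557, DPF2, CDC42EP2, LTBP3, SLC25A45, POLA2 and FRMD8. CDC42EP2 moved from place 8 to place 5 and FRMD8 from 6 to 9. MALAT1 stood at 4.76 times NCRNA00084 in VCaP and at 9.43 times in VCaP ERα. Without replicates there is no spread by which to say which neighbours in this order differ.

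Levels can be ordered in this way only among genes of the same strand. The 2 steps in each library correspond to totals of 1111 and 742 Mb of mapped bases in VCaP and 1140 and 971 Mb in VCaP ERα. Intronless genes annotated on the plus strand gave the first step in 13 of 13 readable values (9 genes), and those on the minus strand the second in 5 of 5 (3 genes), which is the pattern of each strand having been scaled by its own total. Most of the intronless genes tried gave no readable value in either library. A value was readable if it matched 1 step only and came to under 400 bases. SLC25A45 and LTBP3 are annotated on the minus strand and the other members on the plus strand. FRMD8 stood at 0.957 times LTBP3 in VCaP as deposited and at 1.43 times when both strands were scaled to 1 total, which reverses their order there. On a common total, fold changes of plus-strand genes would shift by -0.15 and those of minus-strand genes by 0.20 (log2). All 9 members kept their direction under it but DPF2.

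The span from POLA2 to LTBP3 covers 296 kb and overlaps further entries. TIGD3 (64878858 to 64881658), a gene derived from a transposase, stood at 0.890 RPKM in VCaP against 2.16 RPKM in VCaP ERα, with a log2 ratio of 0.74. AF113016 (65023535 to 65027669) lies wholly inside the span of MALAT1, yet stood at 9.45 RPKM in VCaP against 2.96 RPKM in VCaP ERα, with a log2 ratio of -1.40. Its level was far below that of MALAT1 in both libraries and its direction was the opposite one, also after centring (-0.81). The strand and exons of AF113016 are not in the files.

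**Figure D3:**
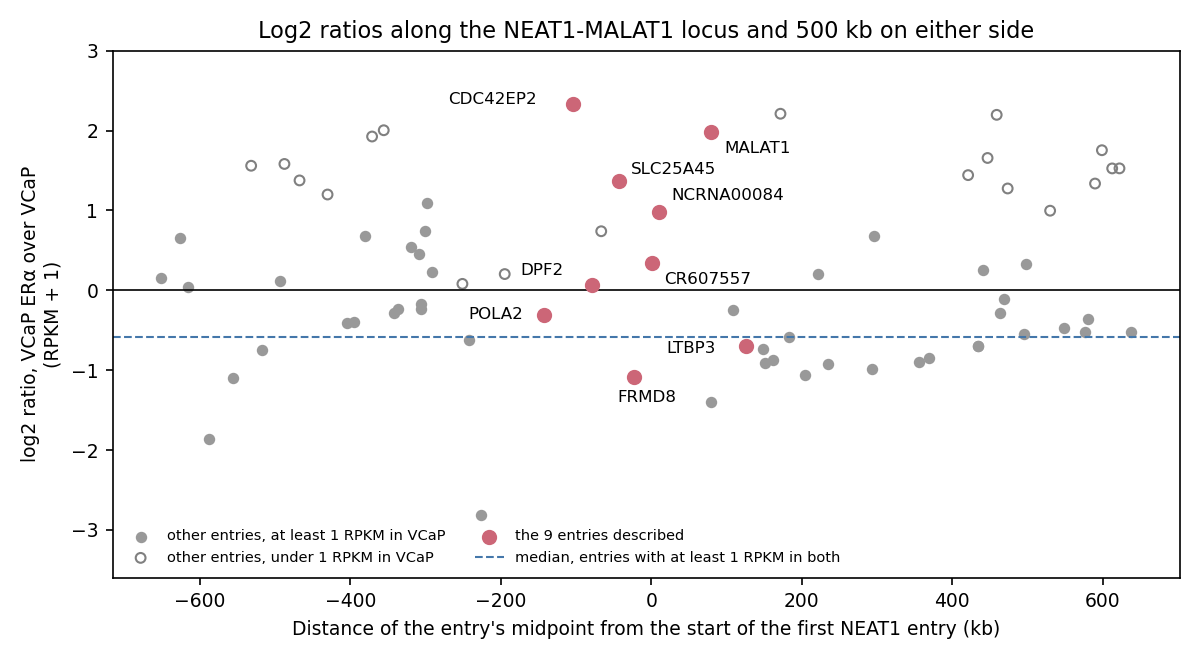
Log2 ratio (VCaP ERα over VCaP, RPKM + 1) of each entry against the distance of its midpoint from the start of the first NEAT1 entry, in kb, over the locus and 500 kb on either side. The 9 entries (colour, named) spread from -1.08 to 2.33, and the open circles, entries under 1 RPKM in VCaP, all lie above 0.

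Entries around the locus showed how far these values stand from their surroundings. Of those 64 neighbours, 44 reached 1 RPKM in each library, of which 14 (31.8%) had a log2 ratio above 0, 1 was above 1 and 5 were below -1, with a median of -0.37. The 1 above 1 was MRPL49, a mitochondrial ribosomal protein gene, with a log2 ratio of 1.09. MALAT1 and CDC42EP2 had larger log2 ratios than any of these 44 neighbours, but KCNK7 (2.21), CTSW (2.20) and AB231703 (2.00), neighbours under 1 RPKM in VCaP that were picked with their values in view, stood above MALAT1. The 19 neighbours under 1 RPKM in VCaP were all higher in VCaP ERα, and SLC25A45 had such a VCaP value too. Across all entries, 9251 of the 14162 under 1 RPKM in VCaP were higher in VCaP ERα. Over chromosome 11 without the members, 37.4% of the 583 entries that reached 1 RPKM in each library were above 0, with a median of -0.44.

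The entries nearest to NCRNA00084 in level in both libraries, by distance in log2(RPKM + 1) over the 2 libraries, were ABHD2 (28.0 and 53.3 RPKM), UBA2 (25.6 and 50.7 RPKM) and MRPL49 (26.9 and 58.6 RPKM). ABHD2 encodes a lipid hydrolase and UBA2 a subunit of the SUMO-activating enzyme. For MALAT1 they were NACA2 (109 and 443 RPKM), RPS16 (114 and 397 RPKM) and ATP6V1G1 (134 and 370 RPKM). NACA2 and RPS16 have near-identical copies elsewhere in the genome, so their values are uncertain.

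Genes that work with the members were described by lists, whose counts stand beside the shares of the 9754 entries that reached 1 RPKM in each library: 29.1% above 0, 7.89% above 1 and 35.6% below -1, and after centring 17.1% above 1 and 19% below -1. By construction, centring sets the median of these entries to 0, so that as many lie above 0 as below it. Counts above 0 after centring, here and in the lists below, are therefore not to be set against the 29.1%. Of 18 paraspeckle proteins, 11 had a log2 ratio above 0, or 14 after centring, with a median of 0.28. Of these 18, 2 were above 1, or 8 after centring, and 1 was below -1 in either case. TAF15 (1.38 and 5.20 RPKM in VCaP and VCaP ERα) and HNRNPA1 (3.27 and 8.67 RPKM) had the highest log2 ratios, 1.38 and 1.18, although HNRNPA1 has many near-identical copies. NONO, a core protein of the bodies, had 65.7 and 38.1 RPKM (-0.77), while SFPQ, its partner in them, had 51.0 and 50.3 RPKM (-0.02, or 0.57 after centring). NONO was thus lower in VCaP ERα, also after centring (-0.18), while both NEAT1 entries were higher.

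Nuclear speckle proteins are components of the bodies in which MALAT1 gathers. Of 12 genes 4 were above 0, or 8 after centring, with a median of -0.14. Of these, 0 were above 1 and 3 were below -1, and after centring 2 were above 1 and 2 below -1. RNPS1 (41.6 and 8.86 RPKM, log2 ratio -2.11) and SRRM2 (43.6 and 10.1 RPKM, -2.01) were the lowest, and RBM25 (0.62) and SON (0.54) the highest.

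The 3′ end of MALAT1 and of long NEAT1 is cut by RNase P, and the small RNA released from MALAT1 is trimmed by RNase Z. Of 11 protein genes of these enzymes 7 had a log2 ratio below -1, against 35.6% of expressed entries, or 3 after centring, against 19%, and 0 were above 1 in either case, with a median of -1.25. The lowest were RPP25 (11.9 and 1.04 RPKM, -2.66) and ELAC2, the gene of RNase Z (16.0 and 3.77 RPKM, -1.83), and the highest were RPP14 (0.18) and RPP30 (-0.04). RPPH1, the RNA subunit of RNase P, stood at 1321 RPKM in VCaP against 2317 RPKM in VCaP ERα, with a log2 ratio of 0.81.

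Other non-coding RNAs gave a measure of how nuclear and small-RNA-host transcripts behaved at large. Of 14 matched genes 7 were above 0, or 11 after centring, with a median of 0.05. Of these, 0 were above 1 and 3 were below -1, and after centring 5 were above 1 and 1 below -1. SNHG8 was the highest with 51.0 and 97.1 RPKM (0.92), followed by RPPH1. SNHG7 was the lowest with 50.8 and 5.88 RPKM (-2.91), followed by TERC, the RNA of telomerase, with 14.4 and 5.66 RPKM (-1.21). As deposited, MALAT1 (1.98) and NCRNA00084 (0.98) had log2 ratios above all 12 listed genes with at least 1 RPKM in either library. The other NEAT1 entry, CR607557 (0.34), was below SNHG8 (0.92) and RPPH1 (0.81). NCRNA00084 was at 0.83 when both strands were scaled to 1 total, a scale on which the listed genes were not taken. Its place above SNHG8 and RPPH1 is therefore shown for the deposited scale only.

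**Figure D4:**
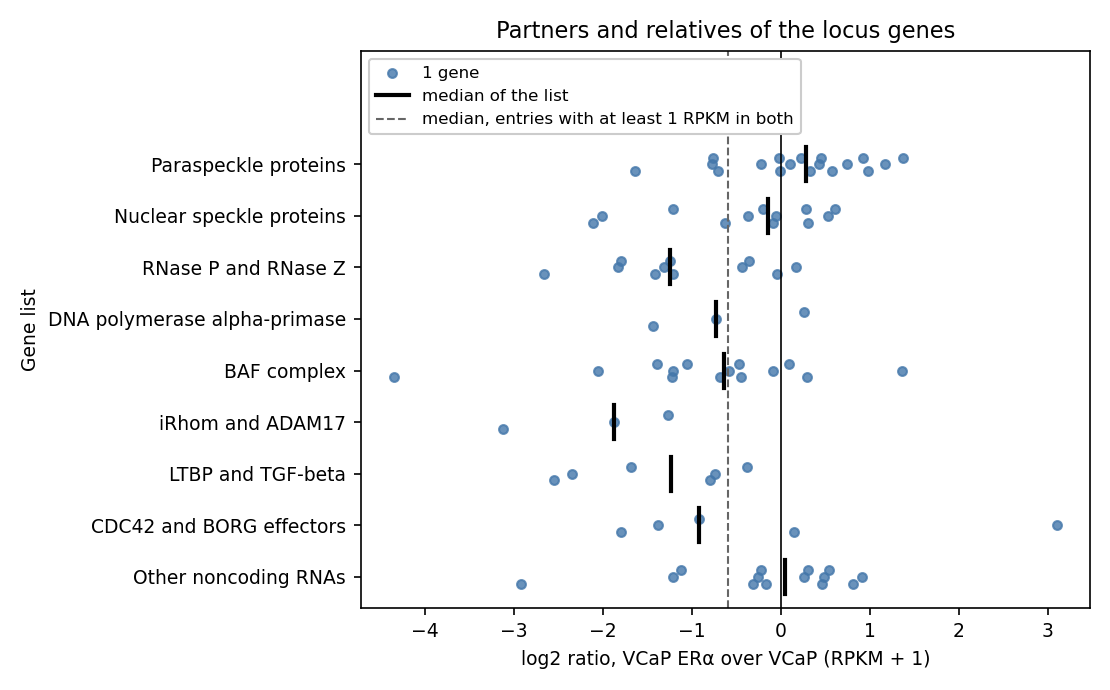
Log2 ratios (VCaP ERα over VCaP, RPKM + 1) of the genes of 9 lists of partners and relatives, with a point for each gene and a black bar for the median of the list. The dashed line is the median of entries that reached 1 RPKM in each library, -0.59; paraspeckle proteins (median 0.28) lie mostly to its right, and the iRhom and ADAM17 genes all lie to its left.

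Lists were also counted for the partners of the protein-coding members. For FRMD8, all 3 partner genes were below -1, RHBDF1 with 19.4 and 1.35 RPKM (-3.11), ADAM17 with 10.5 and 2.14 RPKM (-1.87) and RHBDF2 with 3.99 and 1.08 RPKM (-1.26), and 2 of them remained below -1 after centring. A value below -1 was held by 35.6% of expressed entries, or 19% after centring. For LTBP3, all 6 relatives and ligands were below 0, or 5 after centring, and 3 were below -1, also after centring: TGFB1 with 9.30 and 0.765 RPKM (-2.54), LTBP1 with 5.04 and 0.189 RPKM (-2.35) and TGFB3 with 3.58 and 0.428 RPKM (-1.68). LTBP4 (-0.79), TGFB2 (-0.73) and LTBP2 (-0.38) made up the rest, and LTBP2 turned to 0.21 after centring. The 6 genes stood at 1.03 to 9.30 RPKM in VCaP and at 0.189 to 0.765 RPKM in VCaP ERα. All were thus under 1 RPKM in VCaP ERα and do not belong to the expressed entries whose shares are given. Values placed in this way can only give a log2 ratio below 0 before centring.

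The relatives of CDC42EP2 had values in both directions. CDC42EP3, another effector of the same family, stood at 0.841 RPKM in VCaP against 14.8 RPKM in VCaP ERα, with a log2 ratio of 3.10. CDC42EP4 (14.5 and 3.47 RPKM, -1.80) and CDC42EP1 (4.24 and 1.02 RPKM, -1.38) were lower, CDC42EP5 was under 1 RPKM in both libraries, and CDC42 itself had 34.5 and 17.8 RPKM (-0.92). Across these 5 genes the summed level was 54.3 RPKM in VCaP against 37.4 RPKM in VCaP ERα. Of these sums CDC42 itself made up 34.5 and 17.8 RPKM, so they do not describe its effectors.

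Of 14 BAF complex genes, partners of DPF2, 11 were below 0, or 7 after centring, 6 were below -1, against 35.6% of expressed entries, or 2 after centring, against 19%, and 1 was above 1 in either case, with a median of -0.63, close to that of the expressed entries (-0.59). SMARCD2 stood at 164 RPKM in VCaP against 7.14 RPKM in VCaP ERα, with a log2 ratio of -4.34, and SMARCA4, the ATPase, had 13.6 and 2.52 RPKM (-2.05). SMARCE1, the highest, had 9.56 and 26.3 RPKM (1.37), and ARID1B had a log2 ratio of 0.09. The partners of POLA2 were PRIM2 (3.25 and 0.578 RPKM, -1.43), PRIM1 (3.46 and 1.69 RPKM, -0.73) and POLA1 (0.932 and 1.31 RPKM, 0.26), of which PRIM1 and PRIM2 were lower and POLA1 was higher in VCaP ERα. For these lists too, the part of the cell type markers was not tested.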

How the data were processed

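RNA sequencing of VCaP and VCaP ERα cells, 1 library each, was used, and 2 libraries of mouse fibroblasts were not used here. The authors deposited RPKM values per known-gene entry, and per the labels CASAVA 1.8 and hg18 are named in the submitters' processing notes; aligner and counter are not given in the sources used here. Per the file headers, each entry has identifiers, a symbol and a span.

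After 1 was added to each value, the log2 of VCaP ERα over VCaP was taken per entry, with no filter and no test, since each line has 1 library. Entries past 1 and 2 in either direction were counted over all entries, the larger limit being the study's own. Tried besides were centring on the median, quantile normalization, 0.1 in place of 1 as pseudocount, leaving out entries under 1 RPKM in both libraries, and 1 entry per symbol. A common total for both strands was added after the values were seen, as were the steps of low values and the intronless genes used to assign them. The steps were sought in entries with a span under 400 bases and a product under 60. Strands of the members are those of general annotation. For a gene on several entries the one with the highest mean was taken. Members and lists were chosen with earlier results of these data known. Genes named were the members, the entries between them, the 3 nearest in level to NCRNA00084 and to MALAT1, ESR1, the markers, and from each list the 2 highest and 2 lowest expressed genes, or all of a list of up to 6; SFPQ was picked beyond this rule with values in view. A few items that the rule would name are not reported here. Of 19 paraspeckle and 16 non-coding genes listed, 18 and 14 matched an entry. Scripts were tested on simulated data (Python 3.11.15, numpy 2.4.6, pandas 2.3.3, scipy 1.17.1, matplotlib 3.10.9).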

Additional observations from a re-analysis of the deposited data

How the results depend on the processing

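Centring on the median moved the log2 ratio to 0.93 for CR607557, 1.57 for NCRNA00084 and 2.57 for MALAT1. Quantile normalization moved it to 1.05 for CR607557 and 1.57 for NCRNA00084, and brought the members above 1 from 3 to 5. Members below -1 went from 1 to 0 under centring and to 0 under quantile normalization. By construction centring moved all 9 log2 ratios by 0.59 upwards, and quantile normalization moved 6 of them by more than 1.5-fold. A pseudocount of 0.1 moved 1 of the 9, that of SLC25A45. The minimum of 1 RPKM and 1 entry per symbol select entries and leave values as they are, so they could not move any of the 9. A common total for both strands, added after seeing the data, moved 0 of the 9 by more than 1.5-fold. Its shifts of -0.15 and 0.20 (log2) are too small to do so. CDC42EP2, SLC25A45, MALAT1 and both NEAT1 entries were higher in VCaP ERα, and FRMD8 lower, under every alternative, while POLA2, LTBP3 and DPF2 changed direction as described. Over all entries, 2375 were above 1, but 7426 with a pseudocount of 0.1, 6269 after centring and 3256 after quantile normalization. Below -1 were 4786, but 2686 after centring and 3098 after quantile normalization. Above 2 were 588, but 4238, 1238 and 996 under the same 3 alternatives, and below -2 were 1701, but 2958, 868 and 997. No paired analysis was possible because each cell line has 1 library. Counting error was small for NCRNA00084 and MALAT1. For CR607557 the interval of 1.11 to 1.47 was wide next to its 1.28-fold difference. The spread between cultures is unknown for every value.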
